A study of Caenorhabditis elegans with 2 samples.

Results

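Binding of the Hox transcription factor LIN-39 at tRNA genes was described in whole L3 larvae of *Caenorhabditis elegans* by chromatin immunoprecipitation and sequencing (ChIP-seq). A peak was counted at a tRNA gene where its summit, the position of highest signal, lay inside a nuclear gene of biotype tRNA or within 200 bp of one. The position of the summit alone chose the peaks, and their strength played no part. Of the 30000 peaks that the authors listed from both replicates together (the pooled list), 381 met this rule, 1.27% of the list (95% Wilson interval 1.15 to 1.40%). The authors label this list as peaks and background, the input to their selection of reproducible peaks. A pooled summit alone therefore does not establish binding. The 381 peaks lay at 395 of 612 nuclear tRNA genes, 64.5% (60.7 to 68.2%). Of the 381, 168 were also in the authors' list of peaks thresholded for reproducibility between replicates, called optimal here. That is 44.1% of them (39.2 to 49.1%), and 14.2% of all pooled peaks were optimal.

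The samples were 2 biological replicates of a single group, numbered 1 and 2 as in the labels. Per the labels, the animals were of strain OP18, *unc-119(ed3)* III with the insertion wgIs18, which carries eGFP-tagged *lin-39*, and males and females were pooled. No other genotype, treatment or stage was measured, so the design gives no contrast between conditions and no test was made. The labels state neither the copy number of the transgene nor the age in hours and name lin-39 as the target of the antibody, and no expression values were at hand against which the stage could be checked. Signal from whole animals sums over all cells, so that binding in few cells and weak binding in many cannot be told apart. Read counts are not in the files and the depth of each library is unknown. The control alignments were common to the 2 replicates, and their own signal at tRNA genes was not analysed here.

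tRNA genes are short genes transcribed by RNA polymerase III, the polymerase that makes tRNAs, 5S rRNA and a few other small RNAs in every cell type. Their promoter lies inside the gene. It consists of an A box near the start and a B box near the end, to which the general factor TFIIIC binds before TFIIIB and the polymerase are recruited, and transcription stops at a run of T just downstream. LIN-39 is a homeodomain protein of the RNA polymerase II system, known for its roles in the midbody, such as keeping the vulval precursor cells competent and guiding migrating neuroblasts. With the cofactors CEH-20 and UNC-62 it is known to bind composite Hox-cofactor sites.

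The genes under some of the strongest of the 381 peaks are printed here as the RefSeq sequence of assembly WBcel235, sense strand, to show where their internal promoter lies. Capitals mark the A box, searched as TAGC or TGGC followed by NNAGNNG, and the B box, searched as GTTCNANNC.
F15G9.t1 (tRNA-Ala, chrX:9743589-9743660, plus strand): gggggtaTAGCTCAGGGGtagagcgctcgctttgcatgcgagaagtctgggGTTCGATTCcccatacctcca
C43G2.t1 (tRNA-Leu, chrIV:6556818-6556901, plus strand): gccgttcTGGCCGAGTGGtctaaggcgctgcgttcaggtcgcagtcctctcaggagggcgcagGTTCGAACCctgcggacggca
Y39B6A.t9 (tRNA-Phe, chrV:19126044-19126116, plus strand): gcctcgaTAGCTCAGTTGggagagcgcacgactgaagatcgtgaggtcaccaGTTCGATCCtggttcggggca
C04A11.t1 (tRNA-Leu, chrX:13665555-13665673, plus strand): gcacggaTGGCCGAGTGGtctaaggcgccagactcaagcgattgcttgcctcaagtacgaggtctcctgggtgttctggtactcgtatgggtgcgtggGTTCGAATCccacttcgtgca
F29C4.t1 (tRNA-Arg, chrIV:143982-144054, plus strand): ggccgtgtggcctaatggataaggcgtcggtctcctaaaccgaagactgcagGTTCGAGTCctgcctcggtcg
C02B4.t1 (tRNA-Ile, chrX:12661164-12661247, plus strand): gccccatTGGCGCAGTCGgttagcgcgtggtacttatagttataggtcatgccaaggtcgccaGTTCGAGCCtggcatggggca
C04A2.t1 (tRNA-Leu, chrII:6853204-6853285, plus strand): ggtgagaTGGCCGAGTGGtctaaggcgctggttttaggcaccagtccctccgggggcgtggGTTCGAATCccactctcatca
F46G11.t2 (tRNA-Pro, chrX:5801211-5801282, minus strand): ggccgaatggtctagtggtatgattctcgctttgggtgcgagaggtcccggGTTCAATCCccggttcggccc
In C04A11.t1, C02B4.t1 and C43G2.t1 the boxes lie farther apart than in the others, with the B box starting at base 99, 64 and 64 counted from the first base of the gene. The boxes start at bases 8 and 52 in F15G9.t1. No A box of these letters was found in F29C4.t1 or F46G11.t2.

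LIN-39 summits gathered on the tRNA genes themselves. Of the 381 summits, 207 (54.3%, 95% Wilson interval 49.3 to 59.3%) lay inside the gene, although the gene made up only 15.8% on average of the window searched around it. Another 121 (31.8%) lay upstream and 53 (13.9%) downstream. Measured along the strand of the gene, the median summit was 24 bp downstream of the first base, with quartiles at -13 and 52 bp. tRNA genes had a median length of 72 bp, so the middle of the distribution fell in the first part of the gene, between the A box and the B box. Among the 370 peaks whose gene had the B box, the median summit lay 33.5 bp upstream of the centre of that box, and among the 168 whose gene had the A box it lay 12 bp downstream of the centre of that box. The 168 optimal peaks had their median at 17 bp and the others, which were weaker, at 28 bp. The median was 18 bp in replicate 1's own peaks and 25 bp in replicate 2's, a smaller gap than that between optimal and other peaks. The fragments of 150 to 350 bp named in the labels are longer than the gene, which limits how finely a summit is placed.

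**Figure D1:**
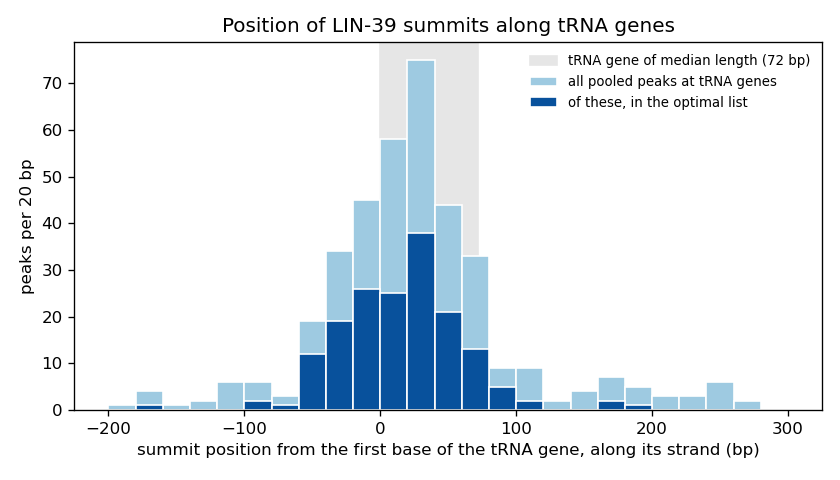
Number of summits per 20 bp (vertical axis) by distance from the first base of the nearest tRNA gene along its strand (horizontal axis, bp), for all 381 peaks in light blue and the 168 optimal peaks in dark blue; the grey band is a gene of median length, 72 bp. Summits pile up over the gene and the 60 bp before it, with the highest bin, 75 peaks, from 20 to 40 bp.

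Within 200 bp, summits farther outside the genes were weaker. Within 50 bp outside the nearest tRNA gene there were 112 summits, 60 of them optimal, with a median signal of 34.5. In the next 50 bp there were 27, with 8 optimal. In the last 50 bp that the rule takes in, up to 200 bp away, there were 16 summits, with 1 optimal and a median signal of 11.2. In the 50 bp just outside the rule there were 11, with 1 optimal and a median signal of 10.6. The decline did not go on: from 250 to 300 bp away the median signal was 14.0, with 3 of 13 summits optimal, and in the last 100 bp before 500 bp it was 13.0. Between 200 and 500 bp the number of summits per bp stayed between 0.22 and 0.28, whereas it was 2.24 in the first 50 bp. The signal here is the authors' peak caller's own value for each peak, without an error of its own, and its scale differs between lists.

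Peaks at tRNA genes were of upper middle strength. The weakest had a pooled signal of 6.55, the median 27.3 and the strongest 216, and the median over all pooled peaks was 11.9. Their median rank was 5398 of 30000. The very strongest peaks of the genome were seldom at tRNA genes: 3 of the peaks ranked 1 to 500 were (0.60%, interval 0.20 to 1.75%), against 26 of the next 500 (5.20%) and 48 of the 1000 after those (4.80%). The share then fell to 4.04% for the rest of the optimal list, 1.65% from there to rank 10000, 0.77% to rank 20000 and 0.41% beyond. Within the optimal list, tRNA peaks had a median signal of 50.9, and the optimal list as a whole had 52.6.

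**Figure D2:**
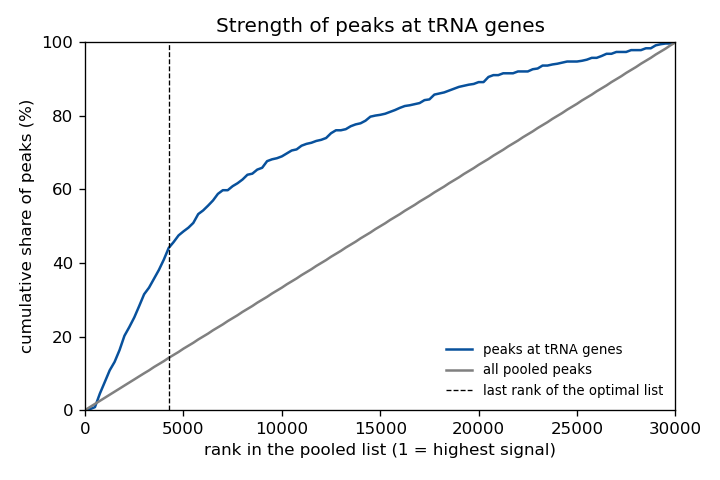
Cumulative share of peaks in percent (vertical axis) by rank in the pooled list (horizontal axis, 1 is the highest signal), for the 381 peaks at tRNA genes in blue and all 30000 peaks in grey. The blue line reaches 44.1% at the last rank of the optimal list, marked by the dashed line, where the grey line is at 14.2%.

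The strongest of these peaks stood apart from the others. It lay on chromosome I from 1446943 to 1447258 on the ce11 build, with its summit 37 bp upstream of F47G6.t1, a tRNA-Arg gene in an intron of *spe-15*. Its signal was 216 in the pooled list (rank 44), 126 in replicate 1 (rank 24) and 83.9 in replicate 2 (rank 168). The next peak had a pooled signal of 112, and the following ones fell gradually from 109.

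The next 11 peaks by signal ran from 112 down to 94.4 (ranks 398 to 609) and served tRNAs for 9 different amino acids. At F41D9.t3, a tRNA-Asn gene in an intron of *sulp-3* on X, the summit lay 45 bp upstream of the gene, with signal 112 in the pooled list, 60.3 in replicate 1 and 51.6 in replicate 2. At F15G9.t1, the tRNA-Ala gene printed above, which lies in an intron of the hemicentin gene *him-4*, the summit lay 37 bp beyond the end of the gene, with signal 109 pooled, 48.9 in replicate 1 and 62.0 in replicate 2. At F14B4.t1, a tRNA-Arg gene on chromosome I, it lay inside the gene, with signal 102, 58.1 and 37.7 in the same order. The lowest rank of these 3 peaks in either replicate was 1375, that of F14B4.t1 in replicate 2.

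C43G2.t1, tRNA-Leu on chromosome IV, lay outside protein-coding genes, and its summit fell 8 bp inside, in its A box, at -329 bp from the start of *try-3* (signal 101 pooled, 56.6 in replicate 1, 42.5 in replicate 2). M02F4.t1, a tRNA-Gly gene on X, had its summit 24 bp upstream (97.7, 46.6 and 58.7). C28G1.t1, a tRNA-Glu gene on X, is the only gene of these whose midpoint lies in an exon of a protein-coding gene, C28G1.2, and its summit was 81 bp upstream of the tRNA gene and 16 bp downstream of the start of C28G1.2 (96.4, 46.3 and 49.6). That peak therefore cannot be told apart from one at the promoter of that gene. C04A11.t1, the long tRNA-Leu gene, had its summit 33 bp inside (95.9, 40.9 and 53.9), and F29C4.t1, tRNA-Arg in an intron of the collagen gene *col-99*, had it 9 bp upstream (95.8, 44.1 and 55.4).

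C37A2.t1, a tRNA-Cys gene on chromosome I, lies in an intron of *cye-1*, which encodes the cell cycle regulator cyclin E. Its peak, from 6781702 to 6782017, had its summit 57 bp inside the tRNA gene and 1054 bp downstream of the nearest start of *cye-1*, with signal 94.6 in the pooled list and rank 372 in replicate 1 and 1562 in replicate 2. C02B4.t1, tRNA-Ile on X, had its summit 4 bp inside (94.4, 61.6 and 27.0), and its rank was 343 in replicate 1 and 2661 in replicate 2. The strongest peak on chromosome II was at C04A2.t1 (signal 91.4, rank 654) and on chromosome III at the tRNA-Gly gene Y82E9BR.t1 (89.0, rank 709), where the summit fell on the first base of the gene. Which replicate ranked a gene higher varied: C04A2.t1 ranked 1260 in replicate 1 and 507 in replicate 2, and Y82E9BR.t1 542 and 1162.

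At the lower limit of the optimal list the values ran on without a gap. The 3 weakest optimal peaks, at ZC455.t1 (tRNA-Ser), F41D9.t4 (tRNA-Arg) and Y51H4A.t4 (tRNA-Gly), had signals of 33.3, 33.3 and 33.1. The 3 strongest that were not optimal, at F41A4.t1 (tRNA-Asp), F31B12.t1 (tRNA-Glu) and F56C3.t1 (tRNA-Gly), had 32.7, 32.6 and 32.6. In all 6 the replicates' ranks differed widely, for example 2523 and 8862 at F41D9.t4 and 19458 and 2458 at F56C3.t1.

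Most peaks at tRNA genes were found in both replicates. Of the 381, 291 overlapped a peak in each replicate's own list (76.4%, interval 71.9 to 80.4%), 39 in replicate 1 only, 46 in replicate 2 only and 5 in neither. Of all pooled peaks, 40.1% overlapped a peak in each. Among optimal peaks the share was 98.2% at tRNA genes and 95.4% in all. Replicate 1's own list held 333 peaks at tRNA genes, of which 167 (50.2%) were among its own 4250 strongest, as many as the optimal list holds, against 14.2% of all its peaks. Replicate 2's list of 27572 peaks held 385 at tRNA genes, of which 136 (35.3%) were among its 4250 strongest, against 15.4% of all. The shares of tRNA genes with a summit were 58.2% in replicate 1 and 62.6% in replicate 2.

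More of the tRNA peaks ranked higher in replicate 1 than in replicate 2. Of the 291 found in both, 117 (40.2%, interval 34.7 to 45.9%) had the better rank in replicate 2, and 58 of the 165 optimal ones did (35.2%, 28.3 to 42.7%). Of all 4053 optimal peaks found in both, 51.2% did. The same share over all pooled peaks found in both, which the 291 would call for, was not computed. Optimal tRNA peaks had a median rank of 2116 in replicate 1 and 3133 in replicate 2, whereas the medians over all optimal peaks were 2140 and 2204. Of the 168, 99 were among both replicates' own 4250 strongest, 39 only among replicate 1's, 24 only among replicate 2's and 6 among neither's. Across the 291 peaks the ranks had a Spearman correlation of 0.53, and across all 12028 pooled peaks found in both it was 0.54. The replicates share their control, and their lists are of different lengths.

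**Figure D3:**
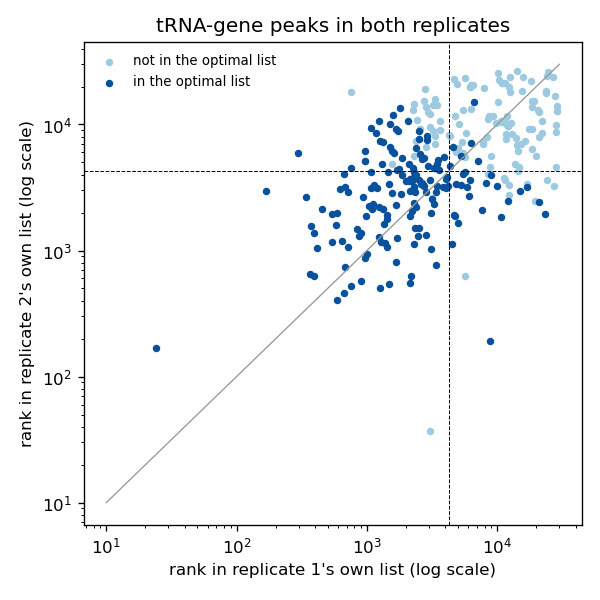
Rank in replicate 1's own list (horizontal axis, log scale) and in replicate 2's (vertical axis, log scale) for the 291 tRNA-gene peaks found in both, with optimal peaks in dark blue; dashed lines mark rank 4250 and the grey line equal ranks. Of the dark points, 99 lie left of and below both dashed lines, and more points lie above the grey line than below it.

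The 5 peaks with the largest ratio between their ranks in the replicates are described next, and in some of them the replicates' summits lay far apart. At C18A11.t2, a tRNA-Arg gene on X, the pooled peak was not optimal (signal 22.7) and ranked 3065 in replicate 1. The replicate 2 peak that overlapped it ranked 37, but its summit lay 214 bp away. The best rank of any replicate 2 peak at a tRNA gene was 168. By the same rule, the peak of rank 37 was therefore not at a tRNA gene. At F46G11.t2, the tRNA-Pro gene printed above, the pooled signal was 84.8, with rank 190 in replicate 2 at a summit 5 bp away and rank 8884 in replicate 1 at a summit 190 bp away. That replicate 1 peak lay 12 bp from the pooled summit of the neighbouring gene F46G11.t1, whose sequence is identical. At F59C12.t3, a tRNA-Val gene on X, the summits of both replicates lay within 27 bp of the pooled one and the ranks were 296 and 5981. At Y39B6A.t9, tRNA-Phe on chromosome V (pooled signal 97.5), the ranks were 167 and 2952, with the replicate 2 summit 123 bp away. The weak peak downstream of F29C4.t1 (signal 9.87) had rank 756 in replicate 1 only through the peak that also matched the strong one. Such sharing concerned 32 of 330 matched peaks in replicate 1 and 24 of 337 in replicate 2.

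A few genes held more than 1 summit, and a few summits served more than 1 gene. Of the 395 genes, 374 had 1 pooled summit and 21 had 2. At the strongest of these the second summit was much weaker and about 200 bp from the first: 95.8 and 9.87 at F29C4.t1, 89.3 and 12 at R04A9.t1 (tRNA-Gln), 65.9 and 13.6 at Y7A9D.t2 (tRNA-Ala), 57.4 and 7.06 at F33G12.t1 (tRNA-Ile) and 55.9 and 19.9 at Y7A9D.t1 (tRNA-His). F46G11.t1 was an exception: the summit inside it had signal 28.1, and the stronger one belonged to its neighbour F46G11.t2. At R04A9.t1 the stronger summit was the one outside the gene, 172 bp upstream, and the weak one lay 32 bp inside. That stronger summit was also at -276 bp from the nearest start of the protein-coding gene ZK1193.2. It therefore cannot be told apart from a peak at the promoter of ZK1193.2. Of the 381 peaks, 346 lay at a single tRNA gene and 35 at 2. The optimal share was 44.2% in the first group and 42.9% in the second.

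Chromosome X carried 276 of the 612 nuclear tRNA genes (45.1%), and 160 of the 381 peaks (42.0%) lay there, while X held 19.6% of all pooled peaks. The share of tRNA genes with a pooled summit was highest on chromosome II, at 48 of 57 (84.2%, interval 72.6 to 91.5%), and III, at 52 of 64 (81.2%). It was 66.7% on I, 61.6% on X, 59.2% on IV and lowest on V, at 39 of 78 (50%, 39.2 to 60.8%). For optimal summits the shares were lower throughout, from 23.1% on V to 38.6% on II, and their intervals overlapped. The same chromosomes were thus lowest and highest in both lists. Intervals take genes as independent, whereas tRNA genes often lie side by side, and they cover the counting of genes only.

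**Figure D4:**
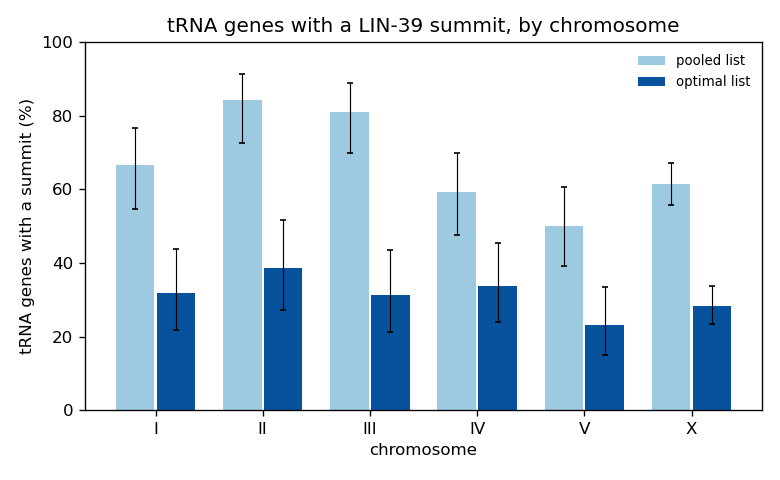
Share of tRNA genes with a summit inside or within 200 bp in percent (vertical axis) by chromosome (horizontal axis), in the pooled list (light) and the optimal list (dark), with 95% Wilson intervals as error bars. The light bars run from 50% on V to 84.2% on II and the dark bars from 23.1% to 38.6%.

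tRNA genes for every amino acid were among those with a summit. With at least 10 genes, the pooled share ran from 45.0% for tRNA-His (9 of 20) and 55.6% for tRNA-Gln (15 of 27) to 74.2% for tRNA-Val (23 of 31) and 79.5% for tRNA-Leu (31 of 39). Even the Wilson intervals of the lowest and the highest overlapped slightly, at 25.8 to 65.8% for tRNA-His and 64.5 to 89.2% for tRNA-Leu. Optimal summits were found at 46.2% of tRNA-Cys genes (6 of 13), 38.5% of tRNA-Leu genes and 14.8% of tRNA-Gln genes (4 of 27). Among these amino acids the median signal of genes with a summit was highest for tRNA-Cys, tRNA-His and tRNA-Pro, at 46.0, 42.8 and 38.5. It was lowest for tRNA-Glu, tRNA-Gln and tRNA-Tyr, at 20.5, 16 and 13.5. The order by share and the order by signal differed: tRNA-His had the lowest share of genes with a summit and the second highest median signal, and tRNA-Glu had a share of 73.2% with a low signal. K11H12.t1, the single gene for selenocysteine tRNA, which reads a stop codon as an amino acid, had an optimal summit of signal 63.8 and was named after its value was seen.

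**Figure D5:**
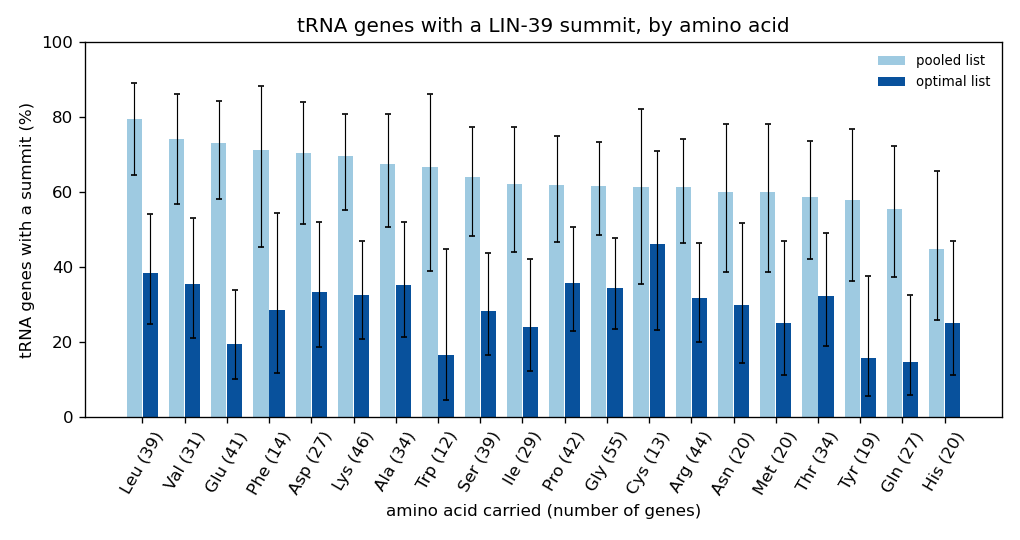
Share of tRNA genes with a summit in percent (vertical axis) by amino acid (horizontal axis, number of genes in brackets, amino acids with at least 10 genes), in the pooled list (light) and the optimal list (dark), with 95% Wilson intervals. The pooled share runs from 79.5% for Leu to 45.0% for His, with wide overlap between neighbours.

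Most tRNA genes have exact copies elsewhere in the genome, and copies of the same sequence differed in their peaks. The 612 genes had 200 distinct sequences, of which 143 occurred once and 57 were shared by 2 or more genes. In 36 of the 57 classes, some copies had an optimal summit while others had no pooled summit at all. Over all 612 genes, 29.9% had an optimal summit and 217 genes had no pooled one. How many mixed classes these shares alone would give was not computed. The treatment of reads matching several copies, which is not given, also bears on this count. In 14 classes every copy had a pooled summit, and in 5 none did. The class with the most genes at summits was a tRNA-Gly sequence with 29 copies, of which 21 had a pooled summit and 10 an optimal one, with signals from 9.26 to 97.7 and a median of 32.6. M02F4.t1 and Y82E9BR.t1 belong to it. The A and B boxes are the same in every copy of a class.

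Genes with copies had summits more often than genes without. Of the 469 genes with at least 1 identical copy, 69.3% (interval 65 to 73.3%) had a pooled summit and 32.6% an optimal one. Of the 143 single-copy genes, 49.0% (40.9 to 57.1%) and 21.0% did, and of the 130 single-copy genes with a B box 49.2% and 21.5%. The sources used here do not say how reads matching several copies were treated, and the part of this in the difference was not tested. The share with a pooled summit was 65.9% with 2 to 5 copies, 68.8% with 6 to 15 and 71.8% with 16 or more. The share with an optimal summit did not follow that order and was 40.2%, 30.3% and 32.1%. Chromosome V, with the lowest share of genes with a summit, had the highest share of single-copy genes, 34.6%, but chromosome II, with the highest, came next at 29.8%.

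The letters of the internal promoter were about as frequent in genes with a summit as in genes without. The B box letters were found in 382 of 395 genes with a pooled summit (96.7%) and in 205 of 217 without (94.5%). The A box letters were found in 42.8% and 42.4%. Within 50 bp of the summit, on either strand, the B box letters lay at 49.3% of the 381 peaks, at 4.26% of all pooled peaks and at 3.68% of the peaks away from tRNA genes. This contrast follows from the rule that chose the peaks, since 587 of the 612 tRNA genes (95.9%) hold these letters. A run of TTTT in the 40 bp downstream, the usual stop signal of RNA polymerase III, was found at 605 of the 612 genes, of which 65% had a summit, as had 2 of the other 7.

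The composite Hox-cofactor motif was rare at these peaks. TGATNNAT, searched on both strands within 50 bp of the summit, was found at 9 of the 381 (2.36%, interval 1.25 to 4.43%), at 7.93% of all pooled peaks and at 8.92% of all optimal ones. Of the 168 optimal peaks at tRNA genes 1 had it (0.60%, 0.11 to 3.29%), and of the 4082 optimal peaks elsewhere 9.26% did. In windows of 100 bp to each side the shares were 6.56% at tRNA genes and 15.1% over all pooled peaks. Part of each window is taken up by the tRNA gene, and 1 of the 612 tRNA genes holds these letters. Of the 10 matches found, 1 lay inside a tRNA gene. The single optimal peak with the motif was at T22A3.t1, a tRNA-Gly gene (signal 69.4, rank 1264), which was named after its value was seen, as were R11B5.t2 and Y65A5A.t2 here.

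Shown with 15 bases to each side, motif in capitals and read along its own strand on WBcel235, are 3 matches at peaks outside the optimal list.
R11B5.t2 (chrX:2531347-2531354, plus strand): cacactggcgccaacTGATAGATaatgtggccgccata
Y65A5A.t2 (chrIV:16399407-16399414, plus strand): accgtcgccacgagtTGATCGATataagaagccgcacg
F33G12.t1 (chrII:5032994-5033001, plus strand): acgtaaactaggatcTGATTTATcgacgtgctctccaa
The R11B5.t2 match lay 13 bp from a summit of signal 32.4 (rank 4366), just under the optimal list. The Y65A5A.t2 match also lay 13 bp from its summit (signal 20.7), which was 169 bp outside the tRNA gene. The match near F33G12.t1 lay 4 bp from the weaker of its summits (signal 7.06) and not at the stronger one inside the gene.

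Most summits at tRNA genes lay away from promoters of protein-coding genes, as did most tRNA genes themselves. Of the 381 summits, 93 (24.4%) lay in a promoter of a protein-coding gene, taken as the 1000 bp before and the 200 bp after a transcript start, against 33.0% of all pooled summits. Among optimal summits, 26.2% did at tRNA genes and 51.3% in all. Another 160 lay inside a protein-coding gene and 128 between genes. The optimal share was 47.3% in promoters, 42.5% inside genes and 43.8% between genes, with overlapping intervals. Over all pooled peaks the optimal share was 22.0% in promoters and 10.3% outside. Of the 612 nuclear tRNA genes, 139 had their midpoint in such a promoter and 473 did not. A pooled summit lay at 69.8% of the 139 (61.7 to 76.8%) and at 63.0% of the 473 (58.6 to 67.2%). The rule takes only summits inside or within 200 bp of a tRNA gene, so their place must largely follow that of the tRNA genes. Of the 376 tRNA genes with no other tRNA gene within 1000 bp, 33.8% (29.2 to 38.7%) had an optimal summit, and of the 236 with a neighbour 23.7% (18.7 to 29.5%) did, while the shares with a pooled summit were 64.9% and 64.0%.

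Set beside other genes by the same rule, tRNA genes had the highest shares among the 4 classes of small RNA genes counted, with snoRNA genes next. A pooled summit lay inside or within 200 bp of 51.2% of 346 snoRNA genes, 31.8% of 129 snRNA genes and 24.5% of 261 miRNA genes, against the 64.5% of tRNA genes. For optimal summits the shares were 26%, 11.6% and 3.83%, against 29.9% (183 of 612) for tRNA genes, and the intervals of tRNA genes (26.4 to 33.6%) and snoRNA genes (21.7 to 30.9%) overlapped. Of the peaks at snoRNA genes 49.7% were optimal, more than the 44.1% at tRNA genes, with overlapping intervals. Protein-coding genes are longer, so they were compared by the start of the gene. A pooled summit lay within 200 bp of the start of 17.8% of 19973 protein-coding genes and of 63.2% of tRNA genes, and an optimal one at 5.18% and 29.6%.

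Genes for the RNA polymerase III machinery and tRNA maturation were too few for a close comparison with all protein-coding genes. Of 20 such genes, 3 (15%, interval 5.24 to 36%) had an optimal summit in the gene or the 2000 bp upstream, and 19.2% of all protein-coding genes did. They were *snpc-3.4*, named as a subunit of the snRNA-activating complex (strongest signal 130, summit at -1710 bp from the start of the gene), *rpac-19*, which encodes a subunit shared by RNA polymerases I and III (69.9, at -1585 bp), and *snpc-4*, for another subunit of the snRNA-activating complex (36.7, at -204 bp, with ranks 9457 and 2270 in replicates 1 and 2). The TFIIIC genes *tftc-1*, *tftc-3* and *tftc-5*, the TFIIIB genes *brf-1* and *tbp-1*, the polymerase genes *rpc-1* and *rpc-2* and the repressor gene *mafr-1* had none.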

How the data were processed

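Peaks of eGFP-tagged LIN-39 were taken from 2 replicates of 1 group. The authors deposited 4 peak lists on the ce11 build: relaxed ones for replicate 1, for replicate 2 and for the pooled data, and a shorter one, the optimal list, kept for reproducibility between replicates. The signal of each peak, as deposited, is the authors' peak caller's value. For the aligner, the peak caller and the treatment of multiply mapped reads, the sources used here give nothing. The lists on ce10 were not used. Each replicate's library had fragments of 150 to 350 bp, per the labels.

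Summits were placed at nuclear tRNA genes of Ensembl release 115. RefSeq gave the names of all 612 and the amino acid of 607, and 22 mitochondrial genes were left out. A replicate's match was the overlapping peak (at least 1 bp) with the nearest summit. Named are the genes at the 12 strongest peaks and the strongest of each chromosome, 3 peaks on each side of the optimal threshold, the 5 with the largest ratio between the replicates' ranks, 6 genes with 2 summits, the copy class with most genes at summits and the bound genes of the polymerase list. The list of 21 polymerase and maturation genes had 1 entry with no gene of that name. The members, lists and rules were chosen with earlier results of these data known. The search for TTTT and the split by strand were added after values were seen. Shares carry 95% Wilson intervals, which cover counting only. Other distances, windows, overlaps and lists were tried. Positions and motifs were computed in Python 3.11.15 with pandas 2.3.3, numpy 2.4.6 and scipy 1.17.1, and the code was tested on simulated data.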

Additional observations from a re-analysis of the deposited data

How the results depend on the processing

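Of 44 alternatives, 22 were counted as leaving a value about the same, 22 as moving it, and none changed a sign. Shares counted as the same stayed within the Wilson interval of the main value, and those counted as moved fell outside it. Counts and medians carry no interval, and their split did not follow the spread between replicates. The 458 peaks at 500 bp counted as the same, although the replicates' own lists held 333 and 385. The median position of 18 bp in replicate 1 counted as moved. In place of 200 bp, summits inside the gene numbered 207, at 33.8% of tRNA genes (15.8% for optimal summits) with a median 32 bp from the start; the share of genes with a summit was 58.0% at 100 bp and 74.2% at 500 bp, where 38.2% of peaks were optimal. It was 59.5% where each summit counted for its nearest tRNA gene only. Counting only the 1000 strongest peaks, 3.33% of the pooled list, 7.61% of the tRNA peaks were among them and 5.56% of tRNA genes had one. In optimal peaks alone the median summit was at 17 bp and the Hox-cofactor motif at 0.60%; within 100 bp the motif was at 6.56%. Peaks found in both replicates were 59.8% with summits within 100 bp and 65.9% with an overlap of at least 50% of the pooled peak. Promoters from 500 bp upstream to 100 bp downstream held 13.9%.

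With each replicate alone, the optimal share, taken as the 4250 strongest of its own list, ran from 35.3 to 50.2%. Genes with a summit ran from 58.2 to 62.6%, genes with an optimal one from 24.2 to 29.4% and the median position from 18 to 25 bp. Pooled tRNA peaks with a match had a median rank of 3718 in replicate 1 and 5513 in replicate 2. Each replicate's own tRNA peaks had median ranks of 4237 and 6957 in the same order. The number of peaks ran from 333 to 385 and the promoter share from 24.0 to 25.2%. The motif was at 3.3% of replicate 1's own tRNA peaks, against 6.80% of all its peaks. In replicate 2 it was at 2.60%, against 9.03%. No paired analysis was possible because there is only 1 group. Read depth is unknown, so a tRNA gene without a summit is not shown to lack binding.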

Other observations

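The 13 strongest peaks at tRNA genes all lay at genes of the plus strand, a pattern noticed after the values were seen. Among the 25 strongest, 20 did (80.0%, 95% Wilson interval 60.9 to 91.1%), among the 50 strongest 32 (64.0%) and among the 100 strongest 58 (58.0%). Over the whole set the strands did not differ by much: 298 of the 612 genes lie on the plus strand, 64.8% of these and 64.3% of the minus-strand genes had a pooled summit, 86 of 168 optimal peaks were at plus-strand genes, and the median signals were 27.3 and 27.6. No test of the run was made.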
